A study of Mus musculus with 18 samples.

Results

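The 10 genes described here are Nqo1, Gclc, Gclm, Gsr, Txnrd1, Srxn1, Gpx2, Osgin1, Nfe2l2 and Keap1, members of the thiol and quinone defence that the transcription factor NRF2 controls, among 12169 genes tested in mouse liver. They were taken by name: the platform annotation gives exactly 1 of these symbols to 20 of the 45101 probe sets, 19 of the 20 passed the filter on dim signals, and each gene was represented by its brightest probe set, so all 10 genes could be tested. The livers came from 18 adult female B6C3F1 mice, a cross of a C57BL/6 mother with a C3H father, all 18 weeks old after 13 weeks of exposure. The 6 groups held 3 animals each, and each array carries the liver RNA of 1 animal. In feed, every day of the week, mice received 1,5-naphthalenediamine at 2000 ppm, N-(1-naphthyl)ethylenediamine (as its dihydrochloride) at 2000 ppm, pentachloronitrobenzene (a fungicide) at 8187 ppm, or feed alone. By gavage, on 5 days per week in 5 ml/kg of corn oil, mice received 2,3-benzofuran at 240 mg/kg, or corn oil alone. The labels class 1,5-naphthalenediamine and 2,3-benzofuran as positive for liver tumours and the other 2 chemicals as negative. By its title, the series asks which expression changes could mark chemicals that cause liver tumours in long bioassays. The 3 feed chemicals share 1 feed control group, so their comparisons are not independent of each other.

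NRF2, encoded by Nfe2l2, is held in the cytoplasm by KEAP1, a cysteine-rich adaptor that delivers it to a ubiquitin ligase. Electrophiles and oxidants modify KEAP1 cysteines, NRF2 then accumulates, pairs with a small MAF protein and binds antioxidant response elements in its target genes. The targets make and recycle glutathione and thioredoxin and reduce quinones, and in liver they are known for protecting hepatocytes against reactive metabolites of foreign compounds.

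The stretches below show the members' promoters that hold an antioxidant response element core, because that sequence is what joins most of these genes to NRF2. They come from RefSeq on GRCm38.p6, written 5′ to 3′ on the strand of the gene, and capitals mark each match upstream of the transcription start. The motif was searched on both strands as TGACNNNGC and as its second form TGAGNNNGC, and the second form was added after the windows had been seen. The matches printed are in Gclm at chr3:122245397-122245457 on the plus strand, Srxn1 at chr2:152105349-152105499 on the plus strand, Txnrd1 (the second of its 3 promoter windows) at chr10:82859086-82859146 on the plus strand, Osgin1 at chr8:119437022-119437082 on the plus strand, and Nfe2l2 at chr2:75704863-75704913 on the minus strand.
Gclm: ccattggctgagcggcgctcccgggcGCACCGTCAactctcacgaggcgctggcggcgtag
Srxn1: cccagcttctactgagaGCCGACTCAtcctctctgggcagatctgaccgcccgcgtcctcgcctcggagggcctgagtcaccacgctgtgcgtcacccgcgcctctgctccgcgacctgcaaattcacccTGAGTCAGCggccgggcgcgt
Txnrd1: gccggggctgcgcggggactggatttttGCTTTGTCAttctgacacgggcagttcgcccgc
Osgin1: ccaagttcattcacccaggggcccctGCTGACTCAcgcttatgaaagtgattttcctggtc
Nfe2l2: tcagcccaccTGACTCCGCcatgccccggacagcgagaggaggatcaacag

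Gclm and Txnrd1 carry the first form on the opposite strand, 134 and 92 bases before the start. Nfe2l2 carries it on its own strand, 240 bases before the start. Srxn1 has the second form at 158 bases before the start on the opposite strand and at 45 bases before the start on its own strand, with a further match of the first form after the start. Osgin1 has the second form on the opposite strand, 99 bases before the start. The nearer Srxn1 match and the Osgin1 match overlap the AP-1 site TGACTCA. Of the 10 members, 8 had an entry in the RefSeq promoters, with a window from 250 bases before to 50 bases after the start, which gave 10 windows. Gclc and Gsr had no entry there. An upstream match was found in 5 of the 8, and the windows of Nqo1, Gpx2 and Keap1 held neither form, which says only that these letters are not in those windows. Over all 32851 windows of that length, 12.4% held the first form, 17.6% the second and 27.8% either one. A letter match is a description and not evidence of binding.

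All values are the authors' log2 signals, and the small number of arrays, 3 in each group, is what limits precision here. Exposed livers had brighter upper signals than control livers, with 75th percentiles between 6.32 and 6.41 in 12 exposed arrays against 6.1 to 6.26 in 6 control arrays. Over the 12169 genes the median log2 change was 0.109 with 2,3-benzofuran and, among the feed chemicals, 0.175 with 1,5-naphthalenediamine, 0.148 with pentachloronitrobenzene and 0.155 with N-(1-naphthyl)ethylenediamine. Changes of genes below are given relative to that median, with the standard error (SE) of the model, and a gene is called at a limma adjusted p under 0.05 on the deposited scale. The call after subtracting from each array its own median over those genes, called centred below, is added where it differs. The median relative change also depended on signal. Under the 4 chemicals it lay between -0.288 and -0.2 for genes of mean signal up to 5. For genes of mean signal from 7 to 9 it lay between 0.0775 and 0.131. The values below are not corrected for this, so small changes are to be read against it. RNA quality also differed: RNA integrity numbers were 7.7, 7.7 and 8.1 in the N-(1-naphthyl)ethylenediamine group and 8.8, 8.8 and 9.1 in the feed controls, and the lowest of the series was 7.4 in corn oil control 24. The log2 difference between the 3′ and 5′ actin probe sets was 1.45 to 1.85 with N-(1-naphthyl)ethylenediamine, 0.90 to 1.00 in feed controls and 1.75 in animal 4 of 1,5-naphthalenediamine. The 18S ribosomal control signal was high in 2 arrays of N-(1-naphthyl)ethylenediamine (10.3 and 11.6), 2 of 2,3-benzofuran (7.93 and 11) and 1 of 1,5-naphthalenediamine (9.97), against 5.94 to 6.97 in the other 13. Hepatocyte markers summed to log2 16.66 to 16.82 in every array.

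Under 1,5-naphthalenediamine 8 of the 10 members were called higher and 0 lower, where 31.5% of all tested genes were called higher and 8.41% lower. Centred, 6 members were higher and 1 lower, against 9.22% and 24.9% of all genes. Under 2,3-benzofuran 6 members were higher and 0 lower, against 24.8% and 7.58%, and centred 6 were higher and 1 lower, against 11.2% and 21.5%. N-(1-naphthyl)ethylenediamine gave 3 higher and 1 lower, against 24.7% and 4.37%, which is near the background, and centred 0 were higher and 2 lower, against 5.49% and 15.1%. Pentachloronitrobenzene gave 6 higher and 1 lower, against 14.6% and 3.87%, and centred 4 higher and 1 lower, against 2.56% and 13.4%. The median relative change of the members was 0.48, 0.59, 0.03 and 0.35 in that order, where the median over all tested genes is 0 by construction. After quantile normalization the members called higher and lower were 6 and 1 for 1,5-naphthalenediamine (12.2% and 12.1% of all genes), 6 and 1 for 2,3-benzofuran (12.6% and 10.7%), 0 and 2 for N-(1-naphthyl)ethylenediamine (7.94% and 6.49%) and 2 and 1 for pentachloronitrobenzene (3.02% and 4.32%). Counting members whose exposed livers all lay on one side of their controls gave 8 higher and 1 lower for 1,5-naphthalenediamine (34.9% and 11.6% of all genes), 7 and 0 for 2,3-benzofuran (35.6% and 13.6%), 3 and 1 for N-(1-naphthyl)ethylenediamine (31% and 7.22%) and 6 and 1 for pentachloronitrobenzene (29.2% and 8.99%). Summed over both directions, the count of calls for N-(1-naphthyl)ethylenediamine fell from 4 to 0 without animal 12. Calls over all genes fell there from 3536 to 1839. For pentachloronitrobenzene the count fell from 7 to 3 without feed control 29, the array with the lowest 75th percentile. Calls over all genes fell there from 2249 to 656.

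**Figure D1:**
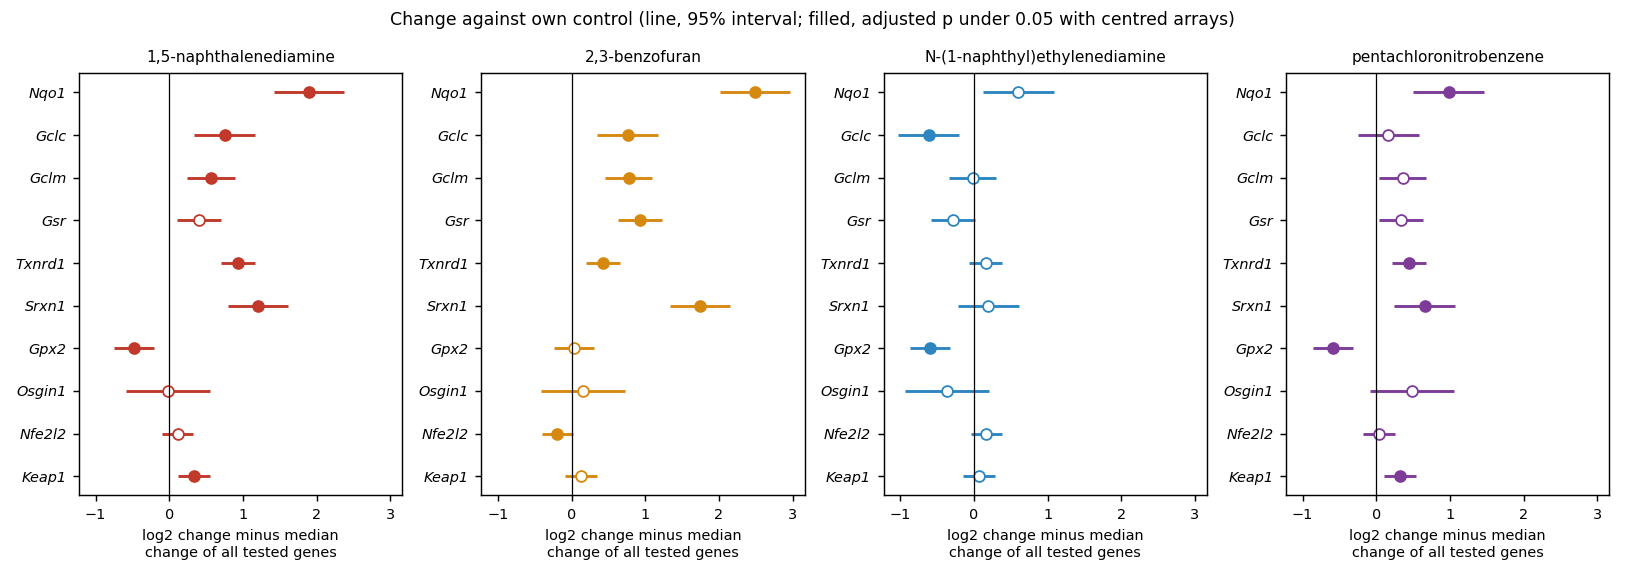
Each point is the log2 change of a gene against its own control group minus the median change of all tested genes, and each line its 95% interval from the fit on the deposited scale; filled points have an adjusted p under 0.05 after the arrays were centred. Nqo1 has the largest rise of the 10 under each chemical, from 0.60 to 2.49, and Gpx2 is filled below 0 under the 3 feed chemicals. Nfe2l2 under 2,3-benzofuran is filled although its plotted interval, from the fit without centring and minus the median change, reaches 0.02.

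Nqo1 encodes the cytosolic flavoprotein that reduces quinones by transferring both electrons at once and so bypasses the reactive semiquinone. Its log2 signals were 5.5, 6 and 6.43 in feed controls, 7.55, 8.13 and 8.47 with 1,5-naphthalenediamine, 6.6, 6.74 and 6.86 with N-(1-naphthyl)ethylenediamine and 6.95, 7.13 and 7.24 with pentachloronitrobenzene. In the gavage groups they were 5.87, 6.29 and 6.64 in corn oil controls and 8.79, 8.84 and 8.95 with 2,3-benzofuran. The lowest liver of every chemical lay above the highest liver of its own control. Ordered by group mean, 2,3-benzofuran (8.86), 1,5-naphthalenediamine (8.05), pentachloronitrobenzene (7.11) and N-(1-naphthyl)ethylenediamine (6.73) did not overlap with their neighbours in that order, whereas N-(1-naphthyl)ethylenediamine overlapped corn oil control and both controls overlapped each other. Nqo1 rose by 2.49 ± 0.23 (SE, n = 3 against 3; 5.6-fold) with 2,3-benzofuran (adjusted p = 4.39e-07) and by 1.90 ± 0.23 (3.72-fold) with 1,5-naphthalenediamine (adjusted p = 9.11e-06). Both changes rank 17 among the rises of 12169 genes. The rise with pentachloronitrobenzene was 0.98 ± 0.23 (1.97-fold, adjusted p = 0.0056, rank 55). With N-(1-naphthyl)ethylenediamine it was 0.60 ± 0.23 (adjusted p = 0.0208), and that call was lost when centred (adjusted p = 0.105) and without feed control 28, feed control 29 or animal 12 (adjusted p up to 0.0917).

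Nqo1 is also known as a target of the aryl hydrocarbon receptor, a ligand-activated factor whose best known targets are the cytochromes P450 Cyp1a1 and Cyp1a2. Cyp1a1 signals were 5.88, 7.46 and 7.63 with 1,5-naphthalenediamine and between 3.47 and 4.16 in the other 15 livers, all of those below the lowest array median of 4.25. Cyp1a1 passed the filter on dim signals only through those 3 livers, so no size of change is given for it, and with 2,3-benzofuran, under which Nqo1 rose most, its signals were 3.59, 3.68 and 3.7. Within the 1,5-naphthalenediamine group animal 2 had the lowest signal of both Nqo1 and Cyp1a1. Cyp1a2 was 11.8, 11.93 and 12.2 in feed controls, 13.24, 13.57 and 13.81 with 1,5-naphthalenediamine, 13.34, 13.4 and 13.43 with N-(1-naphthyl)ethylenediamine and 12.89, 13 and 13.06 with pentachloronitrobenzene. It was 12.05, 12.24 and 12.39 in corn oil controls and 12.24, 12.26 and 12.54 with 2,3-benzofuran, where the groups overlapped. The promoter window of Nqo1 held no GCGTG, the core of the receptor's binding site, which 32.4% of all windows hold on either strand. Of 5 tested genes of the aryl hydrocarbon receptor list, 2 were higher with each feed chemical and 0 with 2,3-benzofuran, and centred 1 was higher with pentachloronitrobenzene. These stand beside 31.5%, 24.7% and 14.6% of all genes for the feed chemicals, as given above. The 5 include Cyp1a1, tested only because of its signal with 1,5-naphthalenediamine, so the count with that chemical is no test of the list. The part of this receptor in the Nqo1 rise was not tested.

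**Figure D2:**
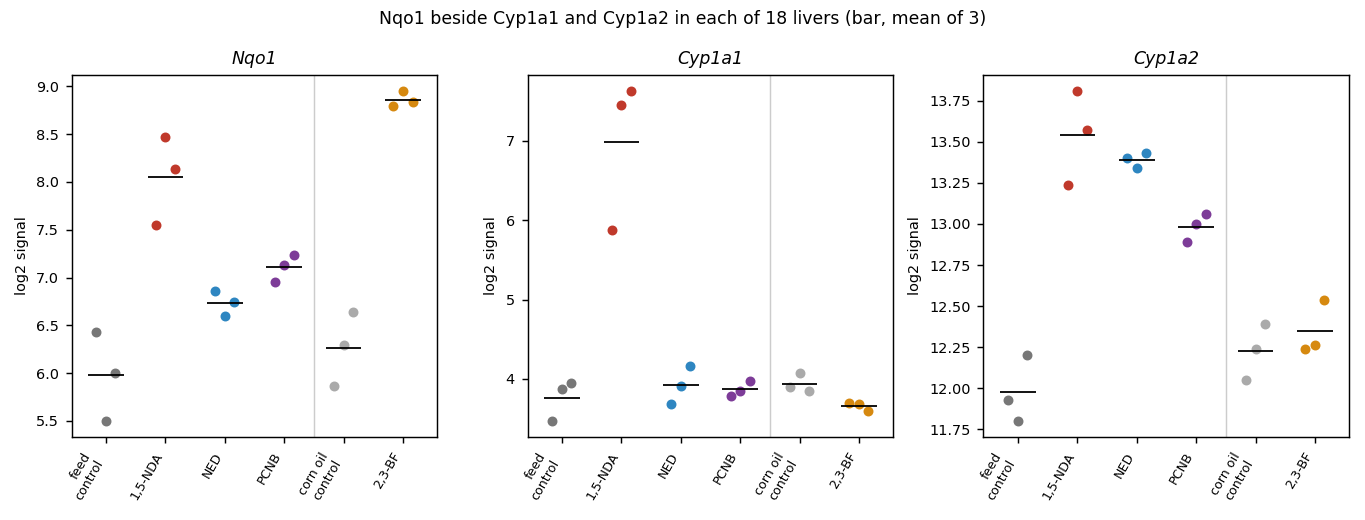
Each point is the log2 signal of 1 mouse liver and each bar the mean of 3, for Nqo1 and for the aryl hydrocarbon receptor targets Cyp1a1 and Cyp1a2, with group names as in the plot of the 10 genes. Cyp1a1 stands above 5.5 only in the 3 livers of 1,5-naphthalenediamine, Cyp1a2 is high in all 9 livers of the feed chemicals, and Nqo1 is highest with 2,3-benzofuran.

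Gclc and Gclm encode the catalytic and modifier subunits of glutamate-cysteine ligase, the rate-limiting enzyme of glutathione synthesis. Gclc signals were 11.02, 11.44 and 11.5 in feed controls, 11.73, 12.4 and 12.62 with 1,5-naphthalenediamine, 10.67, 10.78 and 11.14 with N-(1-naphthyl)ethylenediamine and 11.36, 11.62 and 11.92 with pentachloronitrobenzene. They were 10.9, 11.03 and 11.2 in corn oil controls and 11.69, 12.01 and 12.04 with 2,3-benzofuran. Neither carcinogen group overlapped its control, whereas both groups of negative chemicals overlapped the feed controls. Gclc rose by 0.75 ± 0.20 with 1,5-naphthalenediamine (adjusted p = 0.00183) and by 0.76 ± 0.20 with 2,3-benzofuran (adjusted p = 0.00313). It was at 0.16 ± 0.20 with pentachloronitrobenzene (adjusted p = 0.244). With N-(1-naphthyl)ethylenediamine it was at -0.61 ± 0.20, not called on the deposited scale (adjusted p = 0.0838) and called lower when centred (adjusted p = 0.024), with the RNA quality differences given above. The other Gclc probe set gave 0.94 with 1,5-naphthalenediamine, 0.71 with 2,3-benzofuran, 0.22 with pentachloronitrobenzene and -0.46 with N-(1-naphthyl)ethylenediamine, in the same directions.

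Gclm signals were 9.64, 10.09 and 10.32 in feed controls, 10.41, 10.92 and 10.95 with 1,5-naphthalenediamine, 10.07, 10.17 and 10.23 with N-(1-naphthyl)ethylenediamine and 10.28, 10.57 and 10.71 with pentachloronitrobenzene. They were 9.95, 10.02 and 10.05 in corn oil controls and 10.86, 10.89 and 10.92 with 2,3-benzofuran. All livers of 2,3-benzofuran and of 1,5-naphthalenediamine stood above every control liver. Gclm rose by 0.77 ± 0.15 with 2,3-benzofuran (adjusted p = 0.000433) and by 0.57 ± 0.15 with 1,5-naphthalenediamine (adjusted p = 0.0015). The change with pentachloronitrobenzene was 0.36 ± 0.15 (adjusted p = 0.0312), called on the deposited scale and not when centred (adjusted p = 0.18), and lost without feed control 29, animal 16 or animal 18 (adjusted p up to 0.174). With N-(1-naphthyl)ethylenediamine the value was -0.02 ± 0.15 (adjusted p = 0.515), with a 95% interval from -0.34 to 0.30. A dimmer Gclm probe set gave smaller values: 0.32 with 1,5-naphthalenediamine (adjusted p = 0.0292), 0.61 with 2,3-benzofuran (adjusted p = 0.00371), -0.38 with N-(1-naphthyl)ethylenediamine (adjusted p = 0.232) and 0.05 with pentachloronitrobenzene (adjusted p = 0.393).

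Gsr encodes glutathione reductase, which returns oxidised glutathione to its thiol form with NADPH. Its signals were 7.79, 7.89 and 8.34 in feed controls, 8.37, 8.6 and 8.79 with 1,5-naphthalenediamine, 7.82, 7.88 and 7.95 with N-(1-naphthyl)ethylenediamine and 8.36, 8.48 and 8.64 with pentachloronitrobenzene. Corn oil controls had 8.11, 8.23 and 8.37, and 2,3-benzofuran livers 9.07, 9.34 and 9.41. The 2,3-benzofuran livers were the highest of all groups, and the gap between feed controls and the 1,5-naphthalenediamine or pentachloronitrobenzene livers was narrow, with feed control 27 (8.34) close to both. Gsr rose by 0.93 ± 0.14 with 2,3-benzofuran (1.9-fold, adjusted p = 5.53e-05). It was at 0.40 ± 0.14 with 1,5-naphthalenediamine (adjusted p = 0.00456; centred 0.0899) and at 0.34 ± 0.14 with pentachloronitrobenzene (adjusted p = 0.0276; centred 0.208), both called on the deposited scale only. The call with pentachloronitrobenzene was lost without feed control 28 or 29, or animal 18 or 20 (adjusted p up to 0.131). With N-(1-naphthyl)ethylenediamine it was at -0.28 ± 0.14 (adjusted p = 0.516). The second Gsr probe set gave 0.62 with 1,5-naphthalenediamine (adjusted p = 6.57e-05) and 1.08 with 2,3-benzofuran (adjusted p = 5.11e-07). It gave 0.28 with pentachloronitrobenzene (adjusted p = 0.0157) and 0.04 with N-(1-naphthyl)ethylenediamine (adjusted p = 0.26), the last of opposite sign to the brighter probe set.

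Txnrd1 encodes the cytosolic thioredoxin reductase, a selenoenzyme that keeps thioredoxin reduced. Its signals were 8.61, 8.9 and 9.13 in feed controls, 9.87, 10.02 and 10.08 with 1,5-naphthalenediamine, 9.1, 9.18 and 9.3 with N-(1-naphthyl)ethylenediamine and 9.43, 9.44 and 9.54 with pentachloronitrobenzene. They were 9.06, 9.08 and 9.12 in corn oil controls and 9.54, 9.63 and 9.69 with 2,3-benzofuran. Here 1,5-naphthalenediamine stood highest, with its lowest liver above the highest of 2,3-benzofuran. Txnrd1 rose by 0.94 ± 0.11 with 1,5-naphthalenediamine (adjusted p = 1.83e-06), by 0.43 ± 0.11 with 2,3-benzofuran (adjusted p = 0.00141) and by 0.44 ± 0.11 with pentachloronitrobenzene (adjusted p = 0.00282). The value with N-(1-naphthyl)ethylenediamine was 0.16 ± 0.11 (adjusted p = 0.0361), not called when centred (adjusted p = 0.503) and lost without feed control 28 or 29, or animal 12 or 15 (adjusted p up to 0.177). Its second, dimmer probe set did not show these rises. That probe set gave 0.22 with 1,5-naphthalenediamine (adjusted p = 0.221), -0.22 with 2,3-benzofuran (adjusted p = 0.735), -0.74 with N-(1-naphthyl)ethylenediamine (adjusted p = 0.0597) and 0.09 with pentachloronitrobenzene (adjusted p = 0.492). Another exceeded the array median in 2 of 18 arrays and was not tested. With the probe sets of the gene averaged, the rise was no longer called with 2,3-benzofuran (0.12, adjusted p = 0.283) or with pentachloronitrobenzene (0.28, adjusted p = 0.055), and without the 5 arrays of high 18S signal it was not called with 2,3-benzofuran (0.36, adjusted p = 0.113). With the arrays of that comparison fitted alone, the pentachloronitrobenzene call was lost as well (adjusted p = 0.0528). With 1,5-naphthalenediamine the averaged value was still called (0.60, adjusted p = 0.00112), and between the naphthalene amines the second probe set was called by itself (0.97, adjusted p = 0.0195). Which transcripts each probe set detects was not tested.

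Srxn1 encodes sulfiredoxin, which restores over-oxidised peroxiredoxins. Its signals were 6.25, 6.68 and 6.84 in feed controls, 7.55, 8.11 and 8.24 with 1,5-naphthalenediamine, 6.93, 6.93 and 6.97 with N-(1-naphthyl)ethylenediamine and 7.21, 7.39 and 7.58 with pentachloronitrobenzene. They were 6.72, 6.74 and 6.77 in corn oil controls and 8.3, 8.43 and 9.08 with 2,3-benzofuran. Every exposed group lay above its control, and only 1,5-naphthalenediamine and pentachloronitrobenzene overlapped as neighbours among the exposed groups. Srxn1 rose by 1.75 ± 0.20 with 2,3-benzofuran (3.36-fold, adjusted p = 3.74e-06), by 1.20 ± 0.20 with 1,5-naphthalenediamine (2.3-fold, adjusted p = 9.87e-05) and by 0.66 ± 0.20 with pentachloronitrobenzene (adjusted p = 0.0131). Leaving out feed control 29 ended the last call (adjusted p = 0.077), and it was also lost after quantile normalization (adjusted p = 0.0681) and without probe sets that can match several transcripts (0.39, adjusted p = 0.0766). With N-(1-naphthyl)ethylenediamine it was at 0.20 ± 0.20 (adjusted p = 0.177). Of its other probe sets, a pair gave 0.81 and 0.90 with 1,5-naphthalenediamine and 1.41 and 1.92 with 2,3-benzofuran, all called. With N-(1-naphthyl)ethylenediamine the pair gave -0.18 and -0.07, neither called. With pentachloronitrobenzene it gave 0.385 (adjusted p = 0.0878) and 0.635 (adjusted p = 0.0314). The second of the pair was dim, with means of 4.18 in feed controls and 4.23 in corn oil controls. It exceeded the array median in 12 of 18 arrays, so its sizes of change are uncertain. The remaining one stayed between 5.32 and 5.82 in all 18 livers and was called under no chemical, with adjusted p from 0.366 to 0.993.

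**Figure D3:**
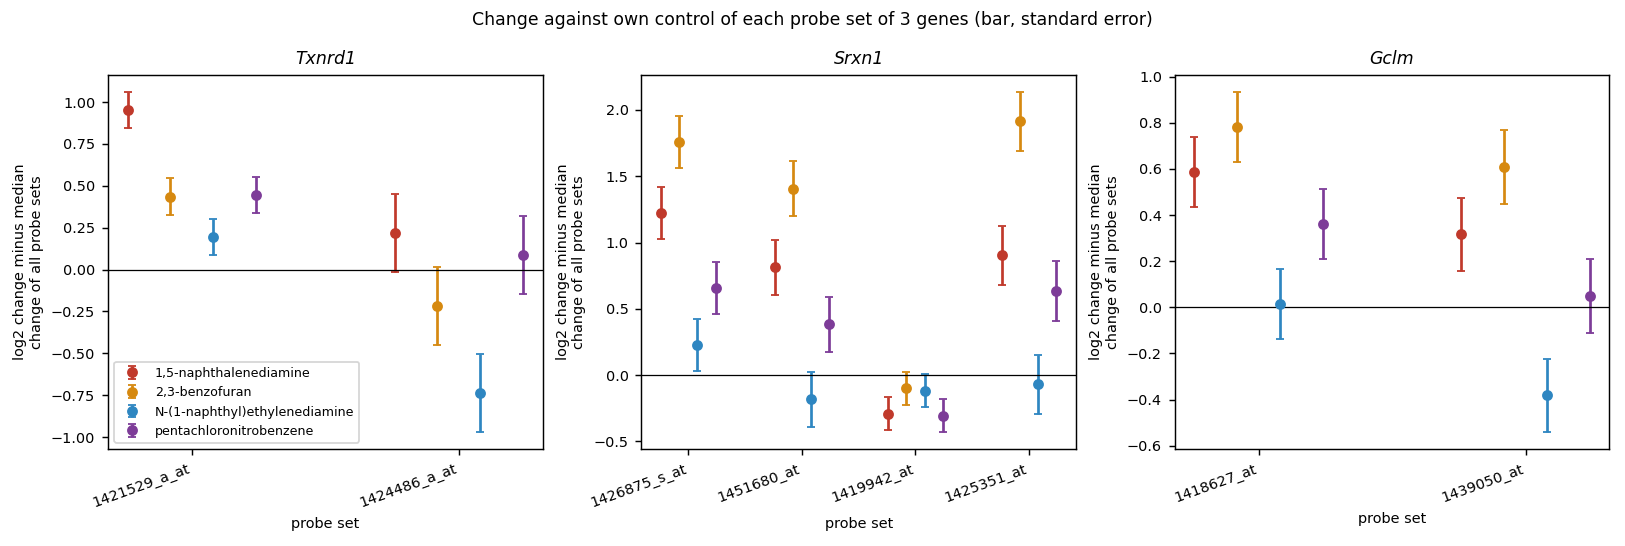
Each point is the log2 change of 1 probe set against its own control minus the median change of all probe sets, and each bar its standard error, for the tested probe sets of Txnrd1, Srxn1 and Gclm under the 4 chemicals. The first probe set of each gene stands for it; the second of Txnrd1, and the one of Srxn1 that stays below 0 under all 4 chemicals, lie apart from the others of their gene.

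Gpx2, the glutathione peroxidase best known from the gut epithelium, removes hydroperoxides with glutathione, and it went the other way. Its signals were dim: 5.69, 5.74 and 5.76 in feed controls, 5.35, 5.39 and 5.53 with 1,5-naphthalenediamine, 5.17, 5.23 and 5.45 with N-(1-naphthyl)ethylenediamine and 5.12, 5.32 and 5.44 with pentachloronitrobenzene. They were 5.27, 5.55 and 5.74 in corn oil controls and 5.46, 5.68 and 5.83 with 2,3-benzofuran. All 9 livers of the feed chemicals lay below all 3 feed controls, while the gavage groups overlapped. Gpx2 fell by 0.60 ± 0.13 with N-(1-naphthyl)ethylenediamine (adjusted p = 0.0174) and by 0.58 ± 0.13 with pentachloronitrobenzene (adjusted p = 0.0301). With 1,5-naphthalenediamine it was at -0.48 ± 0.13, not called on the deposited scale (adjusted p = 0.0674) and called lower when centred (adjusted p = 0.00401). It was at 0.03 ± 0.13 with 2,3-benzofuran (adjusted p = 0.425). The call with N-(1-naphthyl)ethylenediamine was lost without animal 12 or 15 (adjusted p up to 0.0767) and that with pentachloronitrobenzene without feed control 27 or 29, or animal 18 or 20 (adjusted p up to 0.1). The former was also lost with the RNA integrity number as a covariate (adjusted p = 0.0875) and without the arrays of high 18S signal (adjusted p = 0.121), and the latter with pooled controls (adjusted p = 0.0597) and with its own arrays alone (adjusted p = 0.0671). The 3 feed controls lay closer together than the 3 corn oil controls, and the 3 feed comparisons share them.

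Osgin1, an oxidative-stress-induced growth inhibitor, was called under no chemical. Its signals were 8.47, 9.34 and 9.44 in feed controls, 8.88, 9.31 and 9.52 with 1,5-naphthalenediamine, 8.54, 8.95 and 9.14 with N-(1-naphthyl)ethylenediamine and 9.27, 9.74 and 10.12 with pentachloronitrobenzene. They were 8.87, 8.93 and 9.39 in corn oil controls and 9.08, 9.08 and 9.84 with 2,3-benzofuran. All groups overlapped their controls, and the standard error of 0.27 was the widest of the 10 genes. The values were -0.02 with 1,5-naphthalenediamine (adjusted p = 0.67), 0.16 with 2,3-benzofuran (adjusted p = 0.468), -0.36 with N-(1-naphthyl)ethylenediamine (adjusted p = 0.586) and 0.48 with pentachloronitrobenzene (adjusted p = 0.102). The 95% interval for pentachloronitrobenzene ran from -0.09 to 1.05, so a change as large as that of Nqo1 in this group was not excluded.

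Nfe2l2 signals were 8.31, 8.57 and 8.59 in feed controls, 8.68, 8.75 and 8.92 with 1,5-naphthalenediamine, 8.73, 8.86 and 8.86 with N-(1-naphthyl)ethylenediamine and 8.6, 8.69 and 8.74 with pentachloronitrobenzene. They were 8.61, 8.83 and 8.88 in corn oil controls and 8.62, 8.66 and 8.79 with 2,3-benzofuran. The feed controls were the lowest group, below every other liver, and the other 5 groups overlapped. On the deposited scale Nfe2l2 was called higher with 1,5-naphthalenediamine (0.11 ± 0.10, adjusted p = 0.0322) and N-(1-naphthyl)ethylenediamine (0.17 ± 0.10, adjusted p = 0.0261), and neither call remained when centred (adjusted p = 0.791 and 0.451). Both were also lost without feed control 29, among other single arrays. With pentachloronitrobenzene it was at 0.04 ± 0.10 (adjusted p = 0.193). Under 2,3-benzofuran, where Nqo1 and Srxn1 rose most, Nfe2l2 was at -0.19 ± 0.10, not called on the deposited scale (adjusted p = 0.553) and called lower when centred (adjusted p = 0.0258). A dim second Nfe2l2 probe set, above the array median in 6 of 18 arrays, was called under no chemical and gave 0.38 with 1,5-naphthalenediamine (adjusted p = 0.113), 0.51 with N-(1-naphthyl)ethylenediamine (adjusted p = 0.0769), 0.17 with pentachloronitrobenzene (adjusted p = 0.39) and -0.03 with 2,3-benzofuran (adjusted p = 0.856).

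Keap1 signals were 7.71, 7.87 and 8.07 in feed controls, 8.28, 8.41 and 8.51 with 1,5-naphthalenediamine, 8.06, 8.09 and 8.15 with N-(1-naphthyl)ethylenediamine and 8.25, 8.35 and 8.46 with pentachloronitrobenzene. They were 7.92, 7.99 and 8.12 in corn oil controls and 8.17, 8.2 and 8.36 with 2,3-benzofuran. Livers of 1,5-naphthalenediamine, pentachloronitrobenzene and 2,3-benzofuran all stood above their controls. Keap1 rose by 0.34 ± 0.11 with 1,5-naphthalenediamine (1.27-fold, adjusted p = 0.00138) and by 0.32 ± 0.11 with pentachloronitrobenzene (1.25-fold, adjusted p = 0.00887). The second was no longer called after quantile normalization (adjusted p = 0.0721) or with its own arrays alone (adjusted p = 0.0713). It was at 0.13 ± 0.11 with 2,3-benzofuran (adjusted p = 0.0935) and 0.07 ± 0.11 with N-(1-naphthyl)ethylenediamine (adjusted p = 0.115). The dimmer Keap1 probe set was called under no chemical, with 0.17 for 1,5-naphthalenediamine and 0.43 for pentachloronitrobenzene (adjusted p = 0.233 and 0.0707).

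Corn oil gavage was set against plain feed as the background for route and vehicle. None of the 10 members was called, with 0 higher and 0 lower, where 0.123% of all genes were called higher and 0% lower. At an unadjusted p under 0.05 only Nfe2l2 passed, at 0.24 ± 0.10 (unadjusted p = 0.0139, adjusted p = 0.365). After centring and after quantile normalization limma also called 0 members (0.0657% of all genes higher and 0% lower in both). The livers of both controls separated completely for 1 member, Nfe2l2, higher in corn oil, and for 0 lower (7.85% and 3.24% of all genes). The relative changes of the 10 lay between -0.32 for Gclc and 0.25 for Nqo1.

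The 2 naphthalene amines were given at the same ppm in feed and for the same duration, N-(1-naphthyl)ethylenediamine as its dihydrochloride. The same ppm is therefore not the same amount of amine. They were compared directly, gene by gene, with p adjusted over all 12169 genes. In 1,5-naphthalenediamine both amino groups are bound to the naphthalene rings, whereas N-(1-naphthyl)ethylenediamine has a single nitrogen bound to the rings, extended by an aminoethyl chain. With 1,5-naphthalenediamine 6 of the 10 members were higher and 0 lower than with N-(1-naphthyl)ethylenediamine, where 3.51% of all genes were higher and 1.96% lower, and the counts were the same when centred (3.67% and 3.22%) and after quantile normalization (3.76% and 3.4%). Gclc differed by 1.39 ± 0.20 (2.62-fold, adjusted p = 0.000369), Nqo1 by 1.32 ± 0.23 (2.49-fold, adjusted p = 0.00201) and Srxn1 by 1.03 ± 0.20 (2.04-fold, adjusted p = 0.00416). Txnrd1 differed by 0.80 ± 0.11 (adjusted p = 0.000236), Gsr by 0.71 ± 0.14 (adjusted p = 0.00625) and Gclm by 0.61 ± 0.15 (adjusted p = 0.0255). All 3 livers of 1,5-naphthalenediamine stood above all 3 of N-(1-naphthyl)ethylenediamine for these 6 genes and for Keap1, 7 members higher and 0 lower (13.7% and 11.4% of all genes). The other members were not called, with 95% intervals of 0.08 to 0.52 for Keap1, -0.13 to 0.42 for Gpx2, -0.21 to 0.94 for Osgin1 and -0.25 to 0.18 for Nfe2l2. The Gclm call was lost without any one of 5 of the 6 arrays (adjusted p up to 0.114). RNA quality moved with this comparison as well. Over all genes the calls fell from 666 to 93 once the RNA integrity number was a covariate. With the RNA integrity number as a covariate the differences were similar in size, from 0.67 for Gclm to 1.44 for Gclc among the 6, but 3 remained called, Gclc (adjusted p = 0.0085), Txnrd1 (adjusted p = 0.00531) and Nqo1 (adjusted p = 0.0434). Without the 5 arrays of high 18S signal only Gclc remained called, at 1.85 (adjusted p = 0.00273), and 1 liver of N-(1-naphthyl)ethylenediamine was left, assumed to vary like the other groups.

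**Figure D4:**
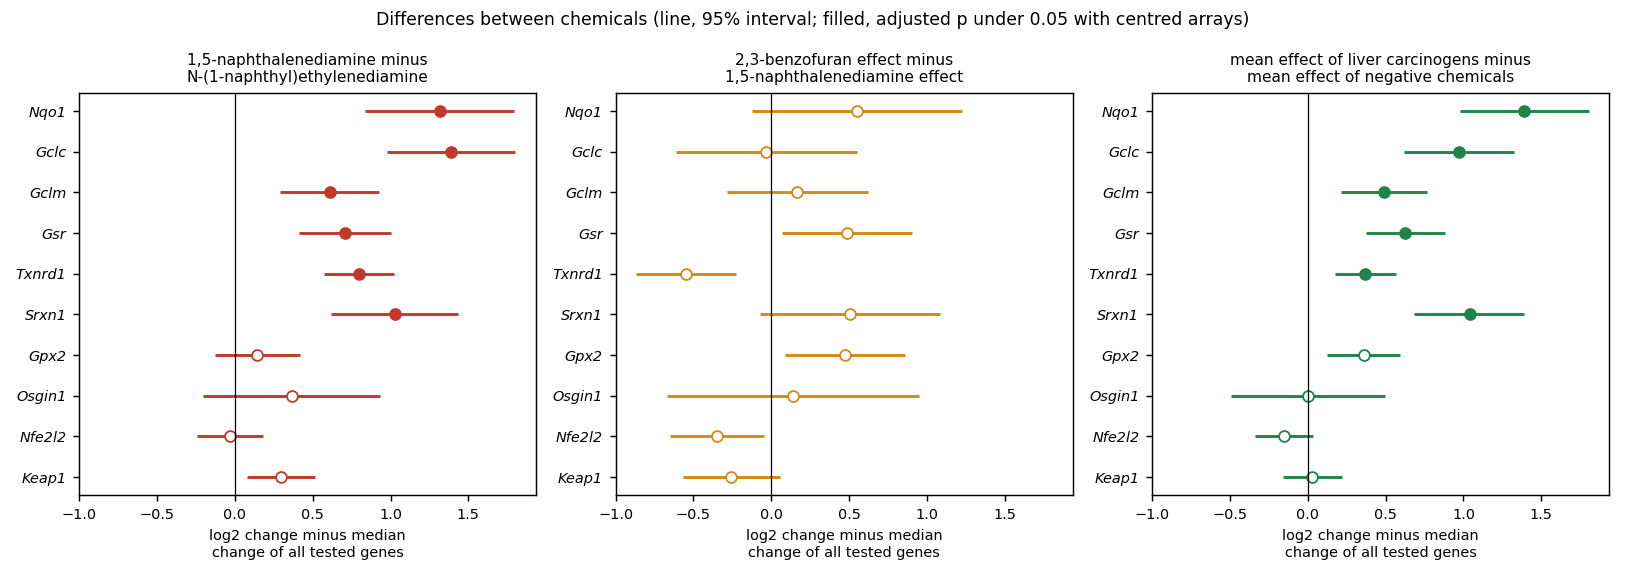
Each point is a difference between chemicals in log2 change minus the median difference of all tested genes, and each line its 95% interval; filled points have an adjusted p under 0.05 after centring. The same 6 genes, Nqo1, Gclc, Gclm, Gsr, Txnrd1 and Srxn1, are filled in the left and right panels, which share the arrays of both naphthalene amines, and none is filled in the middle.

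The effects of the 2 carcinogens, each against its own control, were then set against each other, though their route, dose and days of exposure differ. No member was called, with 0 higher and 0 lower where 0.362% of all genes were higher with 2,3-benzofuran and 0.6% lower. Centred the counts were again 0 and 0 (0.641% and 0.534%), and after quantile normalization 0 and 1 (0.74% and 0.674%). At an unadjusted p under 0.05 Gpx2 (0.47), Gsr (0.49), Nfe2l2 (-0.35) and Txnrd1 (-0.55) passed. Txnrd1 had the smallest adjusted p of the 10, 0.0836 on the deposited scale, 0.0632 when centred and 0.0305 after quantile normalization. It was called lower also without feed control 27 (adjusted p = 0.0179). The intervals were wide, from -0.13 to 1.23 for Nqo1 and from -0.07 to 1.09 for Srxn1, so differences of more than 1 on the log2 scale in favour of 2,3-benzofuran remained possible.

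Mean effects of the chemicals classed as positive and negative were compared as the series title implies. The mean of the positive chemicals was higher for 6 of the 10 members and lower for 0, where 3.8% of all genes were higher and 3.39% lower, and centring left the counts as they were (4.82% and 4.3%), as did quantile normalization (4.89% and 4.26%). The 6 were Nqo1 (1.39 ± 0.20, adjusted p = 0.00022), Srxn1 (1.04 ± 0.17, adjusted p = 0.000769), Gclc (0.97 ± 0.17, adjusted p = 0.00154), Gsr (0.63 ± 0.12, adjusted p = 0.00356), Gclm (0.49 ± 0.13, adjusted p = 0.0286) and Txnrd1 (0.37 ± 0.09, adjusted p = 0.0192; 0.108 with its probe sets averaged). Gclm lost its call without any one of 8 of the 18 arrays (adjusted p up to 0.0674). Gpx2 was at 0.36 ± 0.11 (adjusted p = 0.06), and Osgin1, Nfe2l2 and Keap1 were at 0, -0.15 and 0.03. Each class holds 2 chemicals, so the class cannot be told apart from those 2 chemicals. The negative chemicals were not without change, since Nqo1 was called higher with pentachloronitrobenzene. Txnrd1 and Srxn1 were called higher with it too, but those calls were lost under some of the alternatives given above. With the RNA integrity number as a covariate 3 members remained called, Nqo1, Gclc and Srxn1 (adjusted p = 0.0131, 0.0378 and 0.0457), and without the 5 arrays of high 18S signal 2 did, Nqo1 and Gclc. Over the alternatives other than leaving out 1 array, the values ran from 0.62 to 0.70 for Gsr, from 0.49 to 0.62 for Gclm and from 0.34 to 0.42 for Txnrd1. Calls over all genes fell from 876 to 149 with the RNA integrity number as a covariate.

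Other known NRF2 targets, 29 listed and 25 tested, were counted beside the members. This list and those below were chosen with earlier results of these data known. Their counts and medians are therefore a description and no test of the lists. On the deposited scale 23 of 25 were higher with 1,5-naphthalenediamine (17 centred), 23 with 2,3-benzofuran (22 centred), 11 with N-(1-naphthyl)ethylenediamine (5 centred, and 1 lower) and 16 with pentachloronitrobenzene (13 centred), with 0 lower on that scale. Over all genes 31.5%, 24.8%, 24.7% and 14.6% were called higher in that order on the deposited scale, and 9.22%, 11.2%, 5.49% and 2.56% centred. The median relative changes of these targets were 0.99, 1.08, 0.12 and 0.38, beside 0 for all genes. Abcc4, an exporter of conjugates, was 4.09, 4.14 and 4.24 in corn oil controls and 9.53, 9.67 and 9.94 with 2,3-benzofuran. In feed controls it was 3.77, 3.91 and 4.03, and with 1,5-naphthalenediamine 7.29, 8.1 and 8.29. Both negative chemicals also lay above feed controls, pentachloronitrobenzene at 5.77, 5.82 and 6.06 and N-(1-naphthyl)ethylenediamine at 4.39, 5.23 and 6.02. Cbr3, a carbonyl reductase, was 3.47, 3.64 and 3.66 in corn oil controls and 8.23, 8.45 and 8.54 with 2,3-benzofuran, and 4.39, 5.22 and 6.17 with 1,5-naphthalenediamine. All 6 control livers lay below the lowest array median for Abcc4 and Cbr3, so their levels are given without a size of change. Both genes passed the filter on dim signals only through exposed livers. Both are among the 25 tested, so they enter the counts and medians above by that selection. For Cbr3 the livers of 2,3-benzofuran stood above those of 1,5-naphthalenediamine. Aox1, an aldehyde oxidase, rose by 1.99 ± 0.128 with 1,5-naphthalenediamine (adjusted p = 8.58e-09), by 2.75 ± 0.128 with 2,3-benzofuran (adjusted p = 4.86e-11) and by 1.04 ± 0.128 with pentachloronitrobenzene (adjusted p = 2.11e-05). Hmox1, heme oxygenase 1, was 6.68, 6.98 and 7.29 with 2,3-benzofuran against 6.05, 6.16 and 6.43 in corn oil controls, with no overlap. With that chemical 35.6% of all genes lay wholly above their controls. Feed controls had 5.82, 6.14 and 6.21, overlapped by 1,5-naphthalenediamine (6.04, 6.23 and 6.46) and pentachloronitrobenzene (6.1, 6.19 and 6.4). Livers with N-(1-naphthyl)ethylenediamine had 6.27, 6.3 and 6.43, above the feed controls. Slc7a11, the cystine transporter, was among the 4 of this list not tested.

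Of 32 other glutathione and thioredoxin genes, 25 were tested. On the deposited scale 13 were higher and 0 lower with 1,5-naphthalenediamine, 9 higher and 1 lower with 2,3-benzofuran, 10 higher with N-(1-naphthyl)ethylenediamine and 9 higher with pentachloronitrobenzene, and centred 6, 6, 5 and 2 were higher and 4, 5, 2 and 1 lower. Over all genes the shares called higher on the deposited scale were 31.5%, 24.8%, 24.7% and 14.6%, as given above. Centred, 9.22%, 11.2%, 5.49% and 2.56% of all genes were higher and 24.9%, 21.5%, 15.1% and 13.4% lower. The counts of every list in this paragraph are to be read against these shares. Gpx4, the peroxidase of membrane lipid peroxides, rose by 0.76 ± 0.0858 with 1,5-naphthalenediamine (adjusted p = 9.6e-07) and by 0.89 ± 0.0858 with 2,3-benzofuran (adjusted p = 3.43e-07). Txnip, which binds and inhibits thioredoxin, rose by 1.03 ± 0.23 with N-(1-naphthyl)ethylenediamine (adjusted p = 0.00239) and was 1.74 ± 0.23 lower with 1,5-naphthalenediamine than with it (a difference of -1.74, adjusted p = 0.000194). Among 12 tested genes of quinone, heme and superoxide defence, 7 were higher with 1,5-naphthalenediamine, 5 with 2,3-benzofuran, 4 with N-(1-naphthyl)ethylenediamine and 5 with pentachloronitrobenzene, and centred 4, 5, 1 and 0 were higher and 2, 1, 1 and 0 lower. Cbr1, another carbonyl reductase, rose by 1.5 ± 0.127 with 2,3-benzofuran (adjusted p = 1.11e-07) and by 1.03 ± 0.127 with 1,5-naphthalenediamine (adjusted p = 5.63e-06). Of 13 partners and regulators of NRF2, 5, 3, 6 and 0 were higher in the same order, and centred 0, 1, 1 and 0 were higher and 1, 2, 1 and 0 lower, with Nfe2l1 higher with N-(1-naphthyl)ethylenediamine at 0.48 ± 0.134 (adjusted p = 0.00357).

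Across the 18 arrays Nqo1 followed Gstm4 (r = 0.98), Gstm1 (r = 0.974) and Cbr1 (r = 0.974) most closely, and Srxn1 followed Blvrb (r = 0.976), Entpd5 (r = 0.967) and Cbr1 (r = 0.967). The 3 genes most like Gclc were Cnbp (r = 0.919), Plaa (0.885) and Abce1 (0.884), and those most like Gclm were Ankib1 (r = 0.944), Ado (0.941) and Pdf (0.938). Gsr was followed by Hprt (r = 0.963), Them7 (0.958) and Ghitm (0.951), and Txnrd1 by Pctp (r = 0.956), Gsto1 (0.956) and Ugt2b35 (0.95). The closest to Keap1 were Txnl1 (r = 0.908), Kat2a (0.892) and 1110008P14Rik (0.878), and to Nfe2l2 Abhd17c (r = 0.821), Clk4 (0.811) and Prkab1 (0.799). Osgin1 and Gpx2 had looser partners, Atp6v1g1 (r = 0.834), Sfr1 (0.807) and Cars (0.8) for the former and Gimap5 (r = 0.716), Arhgap22 (0.691) and Rrp1b (0.69) for the latter. Among the members themselves Nqo1 and Srxn1 had r = 0.945, Gclc and Gclm r = 0.862, and Nqo1 and Nfe2l2 r = 0.193. These correlations describe 18 arrays that fall into 6 groups, so they mostly carry the group means and the shift between exposed and control arrays. After the group means were removed, Gclc and Gclm still had r = 0.806, Txnrd1 and Srxn1 r = 0.698 and Nqo1 and Gclm r = -0.518 over the 18 residuals, which share 12 degrees of freedom.

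Liver holds other cells beside hepatocytes, and in whole tissue fewer cells of a type cannot be told apart from less RNA per cell. Of 8 Kupffer cell and macrophage markers, 2 were lower with 1,5-naphthalenediamine (5 centred), 4 with 2,3-benzofuran (7 centred) and 0 with N-(1-naphthyl)ethylenediamine, and 1 was higher with pentachloronitrobenzene. Their summed log2 signal was 11.08 to 11.57 with 1,5-naphthalenediamine and 11.36 to 11.98 in feed controls, and 11.26 to 11.52 with 2,3-benzofuran and 11.75 to 12.06 in corn oil controls. Of 8 hepatocyte markers, 1 was higher and 1 lower with 1,5-naphthalenediamine and 1 was lower with 2,3-benzofuran, and centred 7 and 5 were lower. Of 6 sinusoidal endothelial markers 1 and 2 were lower in that order (centred 4 and 3), of 6 stellate and matrix markers 0 and 1 (centred 2 and 3), of 3 tested lymphocyte markers 0 and 2 (centred 3 and 2), and of 2 tested proliferation markers 0 and 0 (centred 0 and 1). With N-(1-naphthyl)ethylenediamine and pentachloronitrobenzene 0 and 0 hepatocyte markers were lower (centred 3 and 3), and 0 and 0 endothelial markers (centred 0 and 2). Stellate and matrix markers gave 1 and 0 in the same order (centred 2 and 0), and lymphocyte markers 0 and 0 (centred 1 and 1). Over all genes 8.41% were called lower with 1,5-naphthalenediamine and 7.58% with 2,3-benzofuran, and centred 24.9% and 21.5%. With N-(1-naphthyl)ethylenediamine 4.37% were lower (15.1% centred), and with pentachloronitrobenzene 3.87% (13.4% centred). Higher were 31.5% with 1,5-naphthalenediamine and 14.6% with pentachloronitrobenzene. The smaller marker counts are near those shares. The part of the marker differences in the rises of the members was not tested. Among the biliary and progenitor markers 3 were tested, of which 1 was lower with 1,5-naphthalenediamine (centred 2), 1 with N-(1-naphthyl)ethylenediamine (centred 3), 0 with pentachloronitrobenzene (centred 1) and 0 with 2,3-benzofuran (centred 0), and Krt19 lay between 4.02 and 5.27 in all livers.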

How the data were processed

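Liver RNA from 18 mice was hybridised to Affymetrix mouse genome arrays, 1 animal per array, and the labels give each animal its own number, so p-values measure the spread between animals. The deposited values are log2 signals per probe set, and how the authors corrected background, normalized and made detection calls is not given in the sources used here. Gene names came from GEO's platform annotation with symbols updated by Entrez identifier: of 45101 probe sets, 34945 had 1 gene, 932 several, 9160 none in that table and 64 were controls. Probe sets above the median of their array in at least 3 arrays were kept (24396, of which 20712 had 1 gene), and the brightest stood for each of 12169 genes. All 6 groups were fitted together in limma 3.58.1 (R 4.3.3) with a trend of the variance on the mean signal (residual degrees of freedom, 12), and p-values were adjusted by Benjamini-Hochberg over all genes. Because exposed arrays had higher upper signals, changes are given minus the median change of all genes, and calls were repeated after centring and after quantile normalization. The fit was tested on simulated data. No per-sample column was left unmapped (0). All 10 members are described, and from each related list up to 4 genes with the largest absolute t in a contrast could be named, with Cyp1a1, Cyp1a2, Hmox1 and Slc7a11 for their function and, for likeness, the 3 other genes of highest r; Krt19 was named after its values were seen. The members and the 12 gene lists were chosen with earlier results of these data known. Alternatives covered scaling, filters, choice of probe set, RNA quality, thresholds, control groups and leaving out each array. Promoter letters are from RefSeq tables, and a genome and protein sequences were not used here. The plots were drawn with matplotlib 3.10.9.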

Additional observations from a re-analysis of the deposited data

Results flagged for a closer look

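For 6 members the groups differed by a test of the difference itself. Between 1,5-naphthalenediamine and N-(1-naphthyl)ethylenediamine the relative log2 difference was 1.32 for Nqo1, 1.39 for Gclc, 0.61 for Gclm, 0.71 for Gsr, 0.80 for Txnrd1 and 1.03 for Srxn1. Between the mean effects of the positive and the negative chemicals it was 1.39 for Nqo1, 0.97 for Gclc, 0.49 for Gclm, 0.63 for Gsr, 0.37 for Txnrd1 and 1.04 for Srxn1. Both comparisons use the arrays of the same naphthalene amines, so they are not independent. No group holds more than 3 animals, so single outlying animals were not tested for.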

How the results depend on the processing

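Precision is limited by having 3 arrays in each group. No paired analysis was possible because the animals carry different numbers in every group. Requiring a log2 change of at least 1, the members called numbered 2 for each carcinogen, 0 for N-(1-naphthyl)ethylenediamine, 0 for pentachloronitrobenzene, 3 between the naphthalene amines and 2 between the classes. Of all 12169 genes, 176 passed with 1,5-naphthalenediamine, 189 with 2,3-benzofuran, 120 with N-(1-naphthyl)ethylenediamine and 77 with pentachloronitrobenzene. Between the naphthalene amines 94 passed and between the classes 96. For N-(1-naphthyl)ethylenediamine, called 4 times in the fit reported, the count was 2 after quantile normalization, 2 after centring, 1 with array weights, 0 with the RNA integrity number, 0 without the 5 arrays of high 18S signal, 2 with its own arrays alone, 0 at an adjusted p under 0.01 and 2 with pooled controls. For pentachloronitrobenzene, with 7, it was 3 after quantile normalization, 2 with its own arrays alone and 3 under 0.01. Between the naphthalene amines, with 6, it was 3 with the RNA integrity number and 1 without the 18S arrays, and between the classes 3 and 2. Between the carcinogen effects, with 0, it was 1 after quantile normalization. Calls over all genes moved too. With N-(1-naphthyl)ethylenediamine they were 3536 in the fit reported, 1756 after quantile normalization, 2504 after centring and 352 with the RNA integrity number. Pentachloronitrobenzene had 2249, then 893 after quantile normalization, 400 with its own arrays alone and 435 under 0.01. With the RNA integrity number they fell from 666 to 93 between the naphthalene amines and from 876 to 149 between the classes. Leaving out 1 array at a time gave 6 to 6 for 2,3-benzofuran, 7 to 8 for 1,5-naphthalenediamine, 3 to 6 for pentachloronitrobenzene, 0 to 4 for N-(1-naphthyl)ethylenediamine, 0 to 0 for corn oil against feed, 5 to 6 between the naphthalene amines, 0 to 1 between the carcinogen effects and 5 to 7 between the classes. The causes were not tested.

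The sign of 49 values for single members turned, 25 of them on leaving out 1 array, and none had an adjusted p under 0.05. Under 1,5-naphthalenediamine Osgin1 became 0.125 without a filter, 0.016 as the mean of probe sets and 0.016 with pooled controls. Under 2,3-benzofuran Gpx2 became -0.004 with the filter in all 18 arrays, -0.022 with array weights, -0.161 without the 18S arrays and -0.103 with pooled controls, and Osgin1 -0.092 without the 18S arrays. Under N-(1-naphthyl)ethylenediamine Gclm became 0.077 without a filter and 0.013 with pooled controls, Txnrd1 -0.263 as the mean of probe sets, Srxn1 -0.026 as that mean and -0.202 without probe sets of the _s_at, _x_at and _a_at types, and Keap1 -0.019 after quantile normalization, -0.17 as the mean of probe sets and -0.042 with the RNA integrity number. Under pentachloronitrobenzene Nfe2l2 became -0.02 after quantile normalization and -0.078 with pooled controls. Between the naphthalene amines Nfe2l2 became 0.021 with the RNA integrity number and 0.115 without the 18S arrays. Between the carcinogen effects Gclc became 0.008 with the RNA integrity number, and Gclm -0.043 and Osgin1 -0.086 without the 18S arrays. Between the classes Keap1 became -0.021 without the 18S arrays. Txnrd1 has no value without the _s_at, _x_at and _a_at probe sets.

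Leaving out 1 array at a time, values that turned ranged from -0.263 to 0.144 for Osgin1 under 1,5-naphthalenediamine, from -0.075 to 0.131 for Gpx2 and -0.094 to 0.312 for Osgin1 under 2,3-benzofuran, and from -0.149 to 0.102 for Gclm under N-(1-naphthyl)ethylenediamine. Corn oil against feed gave -0.024 to 0.457 for Nqo1, -0.189 to 0.067 for Gclm, -0.01 to 0.221 for Srxn1 and -0.315 to 0.087 for Osgin1. Nfe2l2 between the naphthalene amines ranged from -0.106 to 0.038, and between the carcinogen effects Gclc from -0.309 to 0.17, Gclm from -0.022 to 0.31 and Osgin1 from -0.107 to 0.402. Keap1 between the classes ranged from -0.005 to 0.058.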
